A study of Drosophila melanogaster with 2 samples.

Results

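The regions described here are the Ssrp peaks that lay inside introns at a moderate distance from a gene start. Ssrp is the HMG-box subunit of FACT, the histone chaperone that loosens nucleosomes and rebuilds them when polymerases pass. A peak was included when its summit, its highest point, fell in an intron and in no exon of any annotated transcript and lay more than 500 and at most 3000 bp from the nearest transcription start site (TSS) on either strand. Of the 5445 peaks that passed the authors' threshold on the irreproducible discovery rate (IDR, which asks whether a peak ranks alike in both replicates), 1134 met the rule. They made up 20.8% of the list (95% Wilson interval 19.8 to 21.9). The same rule took 1095 and 1122 of the 5445 strongest peaks of replicates 1 and 2, or 20.4% ± 0.351 (SD, n = 2). The rule used position alone and no measured value. Of the IDR peaks outside it, 2214 lay within 500 bp of a TSS, 1064 were intronic beyond 3000 bp, 901 were intergenic and 132 lay in exons.

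The study measured Ssrp by chromatin immunoprecipitation and sequencing (ChIP-seq) in whole embryos of a Drosophila melanogaster line carrying Ssrp fused at its C-terminal end to green fluorescent protein. The chromatin was precipitated with an antibody against that tag. The embryos were 0 to 16 h old and of both sexes, so each peak sums over all tissues and over most of embryogenesis. There was 1 group of 2 biological replicates from 1 transgenic line, and control libraries were not analysed here. Each replicate list and the pooled list held 30000 peaks, and the IDR list was identical to the 5445 strongest pooled peaks. Without a second group no test over samples was possible, so all comparisons are descriptions set against the spread of the 2 replicates or the counting error of the peaks.

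FACT is best known from transcribed gene bodies, where it helps RNA polymerase II through nucleosomes and keeps histones on the template. Introns close to a gene start hold many of the enhancers of Drosophila developmental genes, and alternative promoters as well.

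Summits of 6 of the 7 strongest of these intronic peaks are given to show their sequence, mostly a stretch rich in A and T between flanks richer in G and C. The summit in HmgD and HmgZ, the third in signal, is described below without its sequence. Each line gives the summit base and 50 bases to either side on the plus strand of the dm6 assembly, from the RefSeq release 6 sequence, with every run of 8 or more A or T in capitals.
CG11050, chr2L:6612668-6612768: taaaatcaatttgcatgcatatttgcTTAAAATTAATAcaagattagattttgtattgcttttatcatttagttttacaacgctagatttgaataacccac
ush, chr2L:481035-481135: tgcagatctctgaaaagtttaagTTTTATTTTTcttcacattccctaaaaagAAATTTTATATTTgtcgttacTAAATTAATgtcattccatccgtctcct
Trl, chr3L:14759467-14759567: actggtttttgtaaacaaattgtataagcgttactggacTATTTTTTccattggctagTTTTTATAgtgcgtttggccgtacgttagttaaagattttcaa
Lk6, chr3R:11760997-11761097: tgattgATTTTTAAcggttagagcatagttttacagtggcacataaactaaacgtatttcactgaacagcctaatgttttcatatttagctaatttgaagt
CG32772, chrX:4910314-4910414: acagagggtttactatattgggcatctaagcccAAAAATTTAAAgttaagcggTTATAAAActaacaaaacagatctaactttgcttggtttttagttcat
CG9663, chr2L:3302154-3302254: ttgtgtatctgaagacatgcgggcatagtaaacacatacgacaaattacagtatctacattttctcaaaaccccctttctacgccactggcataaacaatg
GC content was 24.8% at CG11050, 28.7% at ush, 32.7% at Trl, 30.7% at Lk6, 31.7% at CG32772 and 39.6% at CG9663. The CG9663 summit held no run of 8, while the others shown did. Such runs are not rare elsewhere: in windows 600 bp to either side of the 1134 summits the longest run had a median of 8 bases.

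The 2 windows 600 bp to the left and right of the ush summit show the contrast with its surroundings.
ush left, chr2L:480435-480535: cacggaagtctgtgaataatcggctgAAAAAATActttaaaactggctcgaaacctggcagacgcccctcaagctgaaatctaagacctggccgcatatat
ush right, chr2L:481635-481735: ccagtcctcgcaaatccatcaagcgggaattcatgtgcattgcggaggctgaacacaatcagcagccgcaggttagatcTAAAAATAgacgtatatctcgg
Their GC contents were 45.5% and 48.5%, and each held 8 bases in capitals, against 32 at the summit. The extremes of the whole set were a summit in CG13293 at 9.90% GC and one in 14-3-3epsilon at 61.4% GC, which both had signals close to the lower end of the list.
CG13293, chr3L:6085248-6085348: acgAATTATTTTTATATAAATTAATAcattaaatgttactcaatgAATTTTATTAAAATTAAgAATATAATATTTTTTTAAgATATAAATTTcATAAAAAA
14-3-3epsilon, chr3R:18245212-18245312: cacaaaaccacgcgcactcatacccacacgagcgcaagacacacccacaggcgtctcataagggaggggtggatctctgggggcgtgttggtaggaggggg
The CG13293 summit ranked 5140 of the 5445 IDR peaks and the 14-3-3epsilon summit ranked 5419.

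Over all 1134 peaks, GC content of this window, 50 bp to either side of the summit, averaged 30.1% ± 7.13 (SD over peaks), against 41.7% ± 6.97 in windows 600 bp to either side. It was lower at the summit than in the flanks of 996 peaks, or 87.8%. Introns that could have held such a peak (in no exon, over 500 and up to 3000 bp from a TSS, called eligible sequence below) averaged 39.3% ± 9.29 over 149468 tiles of the same length. The GC content at the summit was much the same as at peaks within 500 bp of a TSS (30.05%) and at intronic peaks beyond 3000 bp (29.5%). The flanks differed: they averaged 41.7% in the present set, 45.7% near TSSs and 41.0% farther inside introns. Signal and summit GC content were weakly related over the 1134 peaks (Spearman's rho −0.18, given as a description, since neighbouring peaks share their sequence context).

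**Figure D1:**
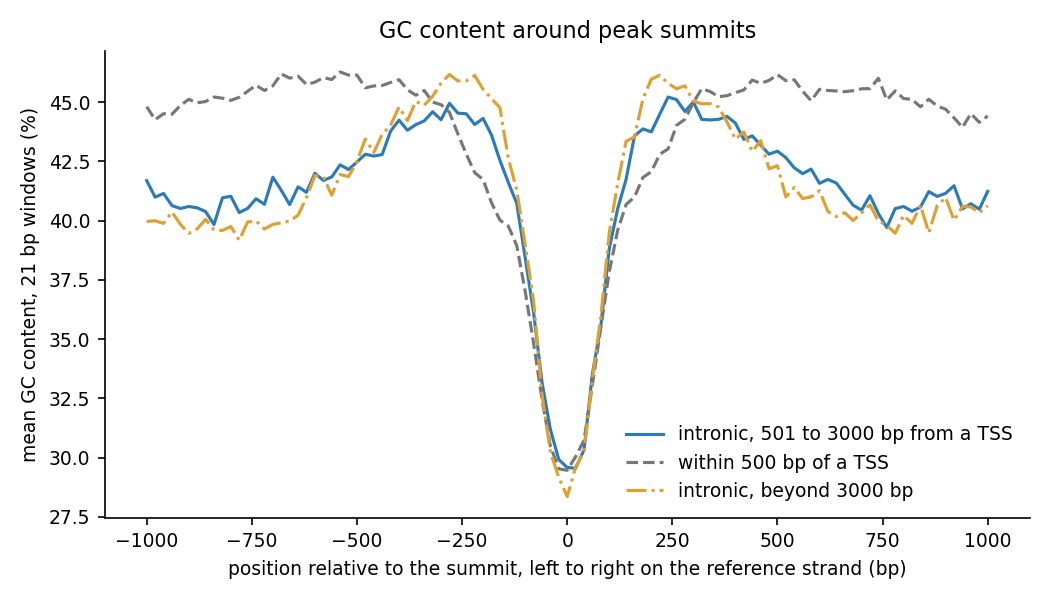
Mean GC content in windows of 21 bp, every 20 bp, around the summits of the 1134 intronic peaks over 500 and up to 3000 bp from a TSS, of the 2214 peaks within 500 bp of a TSS and of the 1064 intronic peaks beyond 3000 bp. All 3 lines dip at the summit, and the flanks of the peaks near TSSs are the richest in GC.

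The same contrast appeared as a gradient in peak density. Where the window held under 25% GC, there were 297 peaks per Mb of eligible sequence (replicate lists 281 ± 13.2, SD, n = 2). At 25 to 30% GC there were 197 per Mb, at 30 to 35% 109 and at 35 to 40% 44.9. Density was 23.5 per Mb at 40 to 45% GC (28.9 in replicate 1 and 14.3 in replicate 2) and 9.63 per Mb at 45% or above (replicate lists 10.2 ± 4.48). The windows under 25% GC made up 6.37% of the tiles and held 286 peaks, or 25.2% of the set. The windows of peaks were centred on summits and the tiles lay on a fixed grid, which by itself gives peaks the lower values of a local dip.

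Peaks of this kind thinned out with distance from the TSS. Eligible sequence came to 16.8 Mb, or 12.2% of the 7 chromosomes, and held 67.5 peaks per Mb (replicate lists 66.0 ± 1.14), while all IDR peaks averaged 39.6 per Mb of the chromosomes. Up to 1000 bp there were 396 peaks, 89.7 per Mb (replicate lists 87.9 ± 1.28). The next step, to 1500 bp, held 282 peaks at 74.7 per Mb, and the step to 2000 bp held 202 at 62.0 per Mb. Density was 47.6 per Mb in the step to 2500 bp (replicate lists 46.1 ± 6.48) and 47.4 per Mb in the step to 3000 bp (47.2 ± 0.281), so the last 2 steps did not differ beyond the replicate spread. The nearest step was 1.89 times as dense as the farthest, 1.85 times in replicate 1 and 1.87 times in replicate 2. The zone thus lay between 141 intronic peaks per Mb within 500 bp of a TSS and 44.7 per Mb from 3000 to 5000 bp. Weaker pooled peaks, which did not enter the IDR list, showed a shallower slope of 1.35 times over the same steps. Median signal within the IDR list was 299 in the nearest step and 276 in the farthest, and signal had a Spearman's rho of −0.05 with distance.

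First introns, the introns next to the first exon of a transcript, held most of the set. Of the 1134 summits 896, or 79.0% (Wilson 76.5 to 81.3), lay in the first intron of at least 1 transcript, while first introns made up 61.3% of eligible sequence. The replicate lists gave 79.5% ± 0.540 (SD, n = 2). Density was 87.1 per Mb in first introns and 36.6 per Mb in eligible sequence that was in no first intron, called later introns here. The difference held in every distance step. First introns had 105 peaks per Mb in the step to 1000 bp, against 54.4 in later introns, and 64.4 per Mb in the step to 3000 bp, against 28.05 in later introns. GC content of the tiles was close in the 2 kinds of intron, at 39.5% ± 9.24 in first and 39.0% ± 9.38 in later introns.

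**Figure D2:**
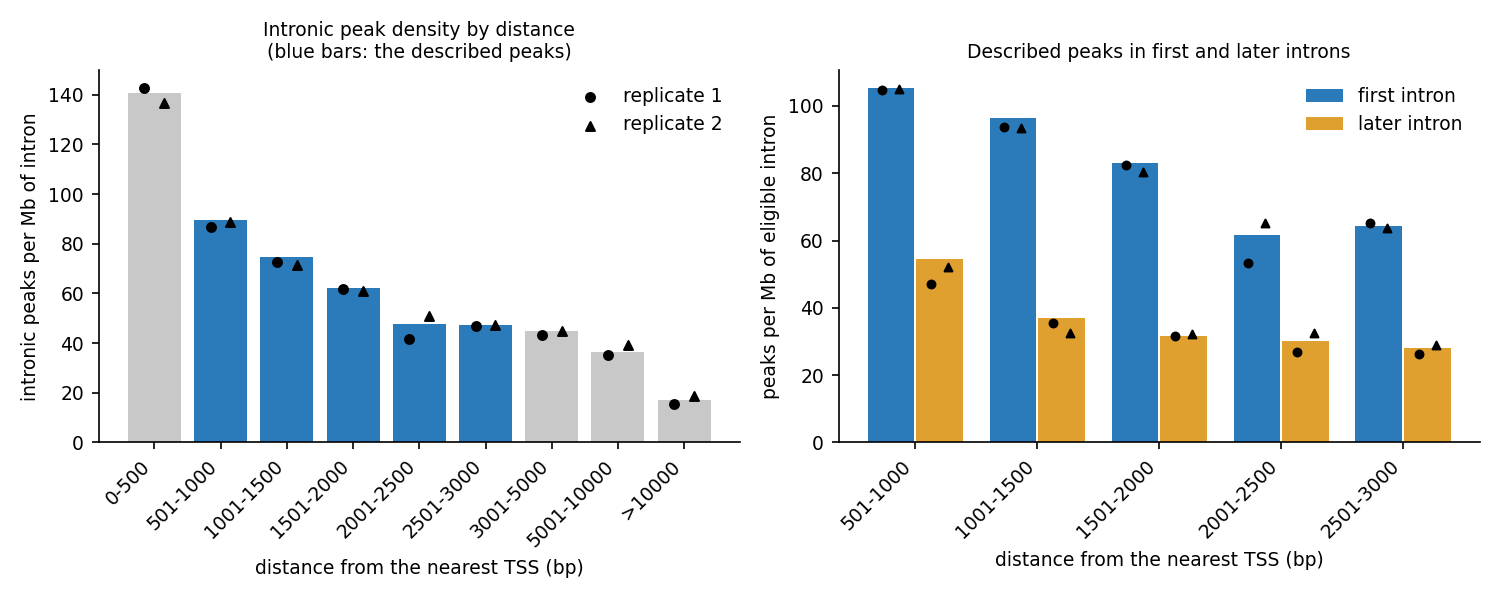
Left, intronic IDR peaks per Mb of intronic sequence by distance from the nearest TSS in bp, with blue bars for the zone over 500 and up to 3000 bp and grey bars outside it. Right, the zone split into first introns (blue) and later introns (orange); circles and triangles give the 5445 strongest peaks of replicates 1 and 2, and density falls from 89.7 to 47.4 per Mb across the zone.

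Within windows of like GC content first introns again held more peaks, up to 40% GC. Below 25% GC they had 388 peaks per Mb, against 154 in later introns, and at 30 to 35% GC they had 142, against 52.1. At 40 to 45% GC the IDR list gave 22.8 peaks per Mb in first introns and 25.01 in later ones, from 42 and 24 peaks. The replicate lists had the other order there, with 32.5 in first introns and 21.9 in later introns in replicate 1, and 16.3 and 10.4 in replicate 2, so no order can be given for these windows.

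**Figure D3:**
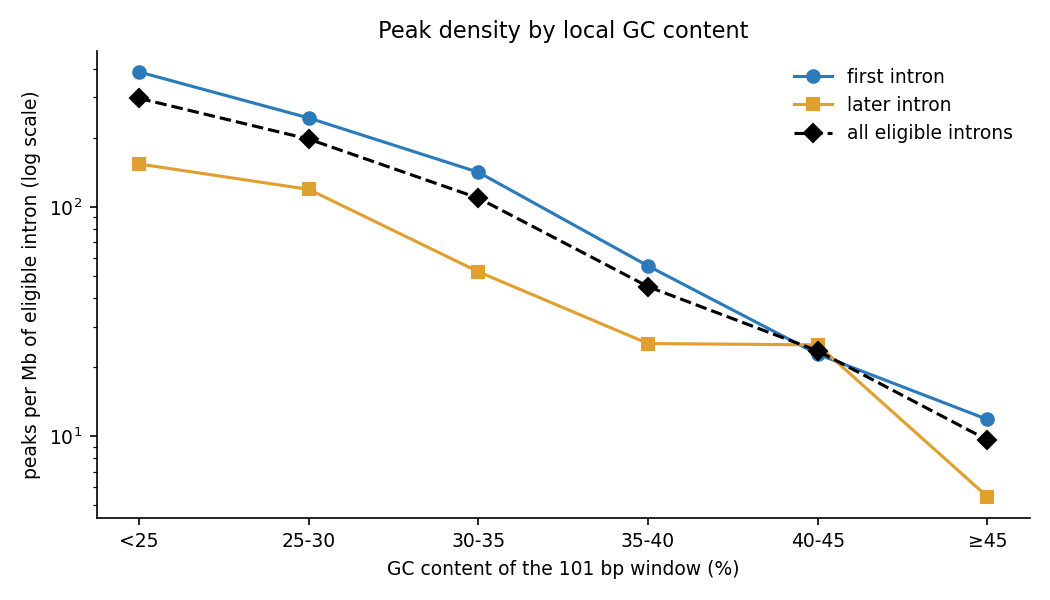
Peaks per Mb of eligible intron (log scale) by GC content of the window in percent, for first introns, later introns and both together. Density for all eligible introns goes down from 297 per Mb under 25% GC to 9.63 per Mb at 45% or above, and in the IDR list the first-intron line lies above the later-intron line except at 40 to 45%.

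Few summits lay beside splice sites. The first 100 bp after a 5′ splice site held 16 summits, 9.45 per Mb, or 1.41% of the set in 10.1% of eligible sequence. The last 100 bp before a 3′ splice site also held 16, 9.09 per Mb, in 10.5% of eligible sequence. Counted from the nearest exon of any transcript, density was 11.7 per Mb at 1 to 50 bp, 33.8 at 51 to 100 bp and 52.6 at 100 to 200 bp. Of these the value at 1 to 50 bp differed most between replicates, with 18.9 in replicate 1 and 9.43 in replicate 2, both below the density farther out. Density then levelled off at 79.5 per Mb from 200 to 500 bp and 78.3 per Mb beyond. The low values beside exons were found in both kinds of intron: within 100 bp of an exon, first introns had 41.6 peaks per Mb (replicate lists 39.7 ± 9.79) and later introns 7.88 (9.29 ± 1.19). Over 200 bp from an exon these densities were 91.9 in first introns and 50.03 in later introns. Tiles within 100 bp of an exon had a GC content of 35.7% ± 8.83, against 39.9% ± 9.22 in tiles over 200 bp away. The summit of the strongest member lay 63 bp from an exon in a 140 bp intron of CG11050.

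Direction relative to the TSS made little difference. Of the summits 728 (64.2%) lay downstream of the nearest TSS in its direction of transcription and 406 upstream, where another transcript's intron reached past it. Density was 66.5 per Mb downstream and 69.4 per Mb upstream. On the strand of the host gene the summit windows of the 1088 peaks with hosts on 1 strand held 34.7% A and 35.2% T, so A and T were about equally common on that strand.

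Density by chromosome ran from 56.3 per Mb of eligible sequence on 2L (replicate lists 55.6 ± 0.465) to 79.3 on X (78.7 ± 6.52). The other large arms lay between, with 66.7 on 3R, 67.7 on 2R and 71.2 on 3L. Chromosome 4, which is largely heterochromatic, held 1 peak in 0.200 Mb, and the Y held none in 0.0319 Mb. The X also had the highest median signal of the large chromosomes, 331, against 261 to 286 on the autosomal arms.

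Peak strength in the set was close to that of the IDR list as a whole. The authors' peak signal is scaled separately for every list. Its median in the IDR list was 285 in these intronic peaks (quartiles 205 and 480, range 157 to 4058) and 293 in all other IDR peaks, a ratio of 0.974. Peaks within 500 bp of a TSS had a median of 325, intronic peaks beyond 3000 bp 263 and intergenic peaks 267. Of the 5717 pooled peaks in the same zone 19.8% passed into the IDR list, against 18.1% of all pooled peaks. The set contributed 5 of the 20 strongest IDR peaks, 17 of the 100 strongest and 196 of the 1000 strongest. Summit and centre coincided for many: 610 peaks had the summit offset 198 bp from the start, and the commonest width was 396 bp.

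Agreement between replicates was also that of the list as a whole. A peak counted as found in a replicate when one of that replicate's 5445 strongest peaks covered at least 50% of it and it covered at least 50% of that peak. Of the 1134 peaks 668, or 58.9% (Wilson 56.0 to 61.7), were found in both replicates, against 59.2% of all IDR peaks. Another 426 were found in 1 replicate and 40 in neither. Replicate 1 held 807 (71.2%) and replicate 2 held 955 (84.2%), against 71.1% and 84.0% of all IDR peaks. With any overlap in place of the 50% rule, 80.5% were found in both replicates, against 80.6% of all IDR peaks. The share was 63.4% for peaks within 500 bp of a TSS and 55.6% for intronic peaks beyond 3000 bp under the 50% rule. Across the 883 peaks matched in both full lists, signals of the replicates had a Spearman's rho of 0.81, given as a description.

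The strongest members were strong in both replicates. They were chosen by pooled signal from a list that passed IDR, which favours this by construction. The highest signal was 4058, in an intron of CG11050, 1031 bp downstream of its TSS, with 1966 in replicate 1 and 2103 in replicate 2. It ranked 5 of the IDR list, 4 of replicate 1 and 10 of replicate 2. The next, 3979, lay in the first intron of ush, which encodes the Friend-of-GATA cofactor U-shaped, and had 1745 and 2249 in replicates 1 and 2. The TSS nearest to that summit, 1397 bp away, belonged to cbt, a zinc-finger transcription factor gene on the other strand inside ush.

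A peak of 3405 lay in introns of both HmgD and HmgZ, which encode abundant HMG-box chromosomal proteins, 600 bp upstream of the HmgZ TSS. Its signals were 1505 in replicate 1 and 1904 in replicate 2. Trl, the gene of the GAGA factor that opens promoter chromatin, carried a peak of 3162 at 1532 bp downstream of its TSS. Lk6, a kinase of the translation factor eIF4E, carried one of 3016 at 968 bp upstream of its nearest TSS. CG32772 followed with 2954 at 1262 bp. These 6 ranked between 4 and 22 in replicate 1 and between 6 and 24 in replicate 2, so their order changed little between replicates.

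The other members of the strongest 20 ran from 2390 down to 1779. They included Tlk, a kinase of the histone chaperone Asf1 (2263), LPCAT, an acyltransferase of phospholipid remodelling (2000), and wde, whose product is a partner of the histone H3 lysine methyltransferase Eggless (1987). Alh, the fly AF10 gene, had 1837, bmm, a fat-storage lipase gene, 1830, and simj, the gene of the p66 subunit of the NuRD remodelling complex, 1800. The transcription factor gene Adf1 closed the 20 with 1779, from 745 in replicate 1 and 1045 in replicate 2. All 20 were among the strongest 5445 peaks of both replicates, with ranks of 4 to 152 in replicate 1 and 6 to 140 in replicate 2. First introns held 17 of them, 11 lay downstream of the nearest TSS, and 18 had a lower GC content at the summit than in the flanks. The exceptions to the last were wde, at 47.5% against 42.1% in its flanks, and Reph, at 34.7% against 30.7%.

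**Figure D4:**
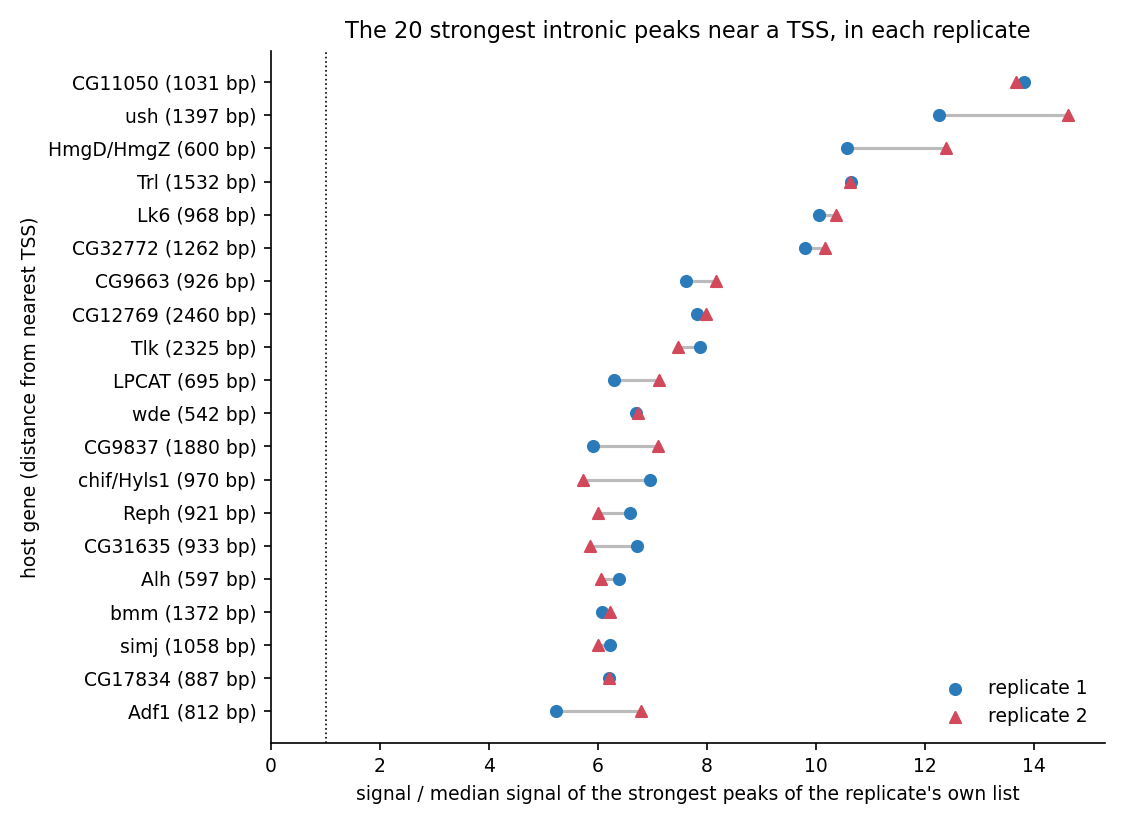
Signal of the 20 strongest members in replicate 1 (circles) and replicate 2 (triangles), each divided by the median signal of the 5445 strongest peaks of that replicate's own list; rows give the host gene and the distance from the nearest TSS. All 20 lie above 5 times the median in both replicates, with the widest gaps at ush, HmgD/HmgZ and Adf1. The 20 were chosen by pooled signal, which favours high values in both.

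The set was hosted by 815 genes, 8.55% of the 9529 genes with any eligible sequence. Replicate lists gave 795 and 815. Of the hosts 789 were protein-coding and 26 were noncoding. Hosts were long: their median length was 15270 bp, against 3135 bp for genes that could have hosted a peak and did not, and their median eligible sequence was 4622 bp, against 356 bp. The share of genes that were hosts grew with eligible sequence, from 0.926% of genes with up to 1000 bp to 17.8% at 2000 to 4000 bp and 42.7% above 8000 bp. Hosts also had an IDR peak within 500 bp of one of their own TSSs more often than other genes, 316 of 815 (38.8%), against 1787 of 8714 (20.5%), without allowance for length. The nearest TSS belonged to a host gene for 916 peaks (80.8%) and to another gene for 218.

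Most hosts, 577, held 1 peak, 148 held 2, 51 held 3 and 39 held 4 or more. The highest count, 12, belonged to CG1677 and the overlapping lncRNA:CR44357 on the X, whose long introns contain other genes. Several of its peaks lay near those inner genes: one of 1239 lay 707 bp upstream of brk, the repressor of Dpp target genes, and another of 1438 lay 806 bp downstream of a TSS of Dok, a signalling adaptor. Tlk held 9 and ush 8, at 370 and 516 per Mb of their eligible sequence. The 8 peaks of ush fell into groups. Upstream of cbt stood the peak of 3979 and one of 261, at 1397 and 2267 bp. An inner TSS of ush itself had 4 upstream of it, at 552, 1312, 1944 and 2637 bp, with signals of 379, 417, 285 and 878. The remaining pair, of 241 and 163, lay 1537 and 2284 bp from their nearest TSSs and near lncRNA:CR46258. CHES-1-like, a forkhead transcription factor gene, CG32264, shn and pnt held 7 each. RhoGAP18B, tna, psq, RapGAP1, CG43658 and fz2 held 6 each. The 7 peaks of pnt, an ETS activator downstream of receptor tyrosine kinases, were modest, with a highest signal of 331, while those of CHES-1-like reached 1147. The highest density among these 39 genes was that of Kdm2, a histone demethylase gene, with 4 peaks in 2500 bp of eligible sequence.

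Peaks can lie close together: 190 of the 1134 lay within 1000 bp of another member and 50 within 400 bp, so neighbouring peaks cannot be counted as independent sites. In CG9663, 2 members shared the same interval with different summits.

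Over all genes with eligible sequence, 8.55% were hosts and density was 67.5 per Mb, without allowance for length. Each list of signalling genes below lay above both values. Of 21 EGF and FGF receptor pathway genes with eligible sequence 12 hosted 26 peaks, 231 per Mb. The hosts included the FGF ligand genes ths and bnl, the EGF ligand-processing genes S, rho and ru, the receptor gene Egfr and the adaptor gene drk. Among them were also the inhibitors aos and sty and the ETS factors pnt and aop. The strongest peak lay in drk, with 1011, then S, with 982, and aop, the gene of the repressor Yan, with 859. The TSS nearest to the drk peak, 867 bp away, belonged to mars. The drk peak had 432 in replicate 1 and 577 in replicate 2, and the aop peak had 433 and 421. Of 17 Wnt pathway genes 7 were hosts (180 per Mb), among them the receptor genes fz, fz2, fz3 and arr, the kinase gene sgg and the inhibitor nkd, whose peak of 1024 was the strongest of the list. Of 15 Dpp pathway genes 7 were hosts (194 per Mb), including the receptor genes tkv, put and wit. The strongest Dpp pathway peaks lay in Mad, the pathway's Smad, with 1269 (583 and 692 in replicates 1 and 2) and in its cofactor gene shn, with 1020. Hedgehog pathway hosts were 3 of 9 (boi, ptc and ttv), with 120 peaks per Mb, and Notch pathway hosts 4 of 13 (phyl, neur, fng and mam), with 77.4 per Mb. The growth and Hippo list had 9 hosts of 20 and 255 peaks per Mb, led by Lk6 and followed by ex at 510. The TSS nearest to the ex peak belonged to lncRNA:CR43717. Other genes also held the TSS nearest to the strongest peaks of fz, arr, wit, ptc, ttv and fng. These were lncRNA:CR45025, CG43192, CG32259, lncRNA:CR44281, LamC and CG10589, in that order. The nearest TSS is not given for every host.

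The background for these counts depends on length. The median eligible sequence was 2912 bp in the EGF and FGF list, 3790 bp in the Wnt list, 2134 bp in the Dpp list, 2500 bp in the Hedgehog list, 2118 bp in the Notch list and 1821 bp in the growth and Hippo list. Of all genes with 2000 to 4000 bp 17.8% were hosts, at 79.8 peaks per Mb of that class, a density that the Notch list did not reach. The Wilson intervals of the Hedgehog share, 12.1 to 64.6%, and of the Notch share, 12.7 to 57.6%, covered that 17.8%. Those of the EGF and FGF, Wnt and Dpp shares began above it, at 36.5, 21.6 and 24.8%. Of genes with 1000 to 2000 bp 9.72% were hosts, at 72.2 per Mb. The interval of the growth and Hippo share began above that 9.72%, at 25.8%. Of genes with 4000 to 8000 bp 30.2% were hosts, at 77.6 per Mb, and of genes above 8000 bp 42.7%, at 64.7 per Mb. The intervals of the Wnt, Dpp and growth and Hippo shares covered that 30.2%. That of the EGF and FGF share, up to 75.5%, covered the 42.7%. Each class was picked by a list median, though lists hold longer genes, such as fz2 with 18611 bp and shn with 22132 bp eligible. The lists were also chosen with earlier results of these data known, so these intervals do not show an excess.

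Transcriptional and chromatin regulators gave mixed counts. Ecdysone response genes had 9 hosts of 13 and 113 peaks per Mb, in long genes with a median of 10362 bp eligible. The share of hosts among all genes above 8000 bp, 42.7%, lay inside the Wilson interval of the list, 42.4 to 87.3%. Their strongest peaks lay in the nuclear receptor genes Hr4 (955) and Hr3 (842), and in Eip63E (603). The Hr4 peak had 480 and 473 in replicates 1 and 2. The Hr3 peak had 424 in replicate 1 and no match in replicate 2 under the overlap rule given above. The TSS nearest to the Hr4 peak belonged to CR46447. Genes of BTB and insulator proteins had 6 hosts of 14 and 205 peaks per Mb, led by Trl and rib (995). The median of this list was 5065 bp, and its Wilson interval, 21.4 to 67.4%, covered the 30.2% of all genes of that length. FACT and HMG-box protein genes had 4 hosts of 8, HmgD, HmgZ, bbx (978) and Dsp1. Their median was 2342 bp, and their interval began at 21.5%, above the 17.8% of all genes of that length. However, HmgD and HmgZ shared the peak of 3405, so these hosts were not independent. The interval counts them as separate hosts and so does not show an excess. Hox genes and cofactors had 4 of 10, Antp (788), Abd-B (782), Ubx (238) and lab, with 60.6 per Mb. The Ubx peak was found in neither replicate under the same overlap rule. The TSSs nearest to the Antp and Ubx peaks belonged to lncRNA:CR43252 and asRNA:PS4. The median of the Hox list was 4029 bp, and the Wilson interval of its share, 16.8 to 68.7%, covered the 30.2% of all genes of that length. Polycomb and trithorax genes had 3 of 24, or 12.5%, at 124 peaks per Mb. The Wilson interval of their share, 4.34 to 31.0%, covered the 8.55% of all genes. Their median eligible sequence was only 607.5 bp, and of all genes with up to 1000 bp 0.926% were hosts, at 35.3 per Mb. The hosts were ph-p (779), kis (366, nearest to a TSS of lncRNA:CR44222) and trx (184). The introns that held these peaks had at least 4290 bp in ph-p, 7230 bp in kis and 6667 bp in trx. The class of the list median need not be that of the hosts, so the 0.926% does not show an excess. Of the GATA factor genes and ush, only ush was a host, with its 8 peaks.

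The remaining lists varied. Gap and pair-rule genes had 1 host of 14, ftz-f1, whose strongest peak was nearest to a TSS of lncRNA:CR45938. Neural transcription factor genes had 1 of 11, grh, whose peak reached 1092. That share, 9.09% (Wilson 1.62 to 37.7), lay below the 42.7% of all genes above 8000 bp, for a median of 9155 bp in the list. Density was 23.6 per Mb in the list, against 64.7 in that class. Mesoderm and muscle genes had 3 of 25 at 31.6 per Mb, although the peaks in the myoblast fusion gene mbc (1108) and in Msp300 (1042), a nuclear-anchoring protein of muscle, were strong. Cell cycle control had 1 of 16, CycE, and apoptosis control 1 of 6, the caspase inhibitor gene Diap1, whose 3 peaks reached 945. Their shares were 6.25% (Wilson 1.11 to 28.3) and 16.7% (3.01 to 56.4), and both intervals covered the 8.55% of all genes. Median eligible sequence was 715 and 858 bp in these lists, and of all genes with up to 1000 bp 0.926% were hosts. With 1 host each, these lists allow no comparison. Axon guidance and adhesion genes had 11 of 30 at 63.6 per Mb, led by the netrin receptor gene fra (1008, nearest to a TSS of CG33752). Genes of RNA-binding proteins had 8 of 19 at 60.4 per Mb, led by mub (1575), and genes of the cytoskeleton and polarity had 9 of 22 at 108 per Mb. The RNA-binding share, 42.1%, was close to the 42.7% of all genes above 8000 bp, for a median of 17135 bp in the list. The axon guidance list (36.7%, median 6485 bp) and the cytoskeleton list (40.9%, median 4412 bp) had Wilson intervals that covered the 30.2% of all genes with 4000 to 8000 bp. None of 27 cytosolic and 22 mitochondrial ribosomal protein genes was a host. Their introns are short, with a median of 102 and 113 bp of eligible sequence, which came to 0.00534 and 0.0103 Mb over the lists.

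Several elements made wholly or mostly of A and T were commoner at the summits than beside them. The homeodomain element TAATTA, which is its own reverse complement, occurred in 13.3% of the summit windows (Wilson 11.5 to 15.4), against 6.26% of flank windows and 8.20% of tiles of eligible sequence. The GATA element AGATAA, on either strand like all elements below, stood in 9.44% of summits, 6.35% of flanks and 6.85% of tiles. The alternating repeat ATATATAT stood in 3.44%, against 1.46% of flanks and 2.09% of tiles. A run of 8 A or 8 T stood in 9.70% of summits, 7.76% of flanks and 7.23% of tiles, with intervals of summits and flanks that overlapped. The elements were about as common at all other IDR peaks. Their shares there were 12.9% (homeodomain), 9.23% (GATA), 3.99% (ATATATAT) and 9.37% (run of 8). The shares of these elements move with the low GC content given above, whose part was not tested.

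Several elements richer in G and C were rarer at summits than beside them. The E-box CANNTG of basic helix-loop-helix proteins stood in 29.5% of summits, 42.3% of flanks and 40.2% of tiles. The GAGA element GAGAG, read by the product of Trl, stood in 7.94%, 15.4% and 11.2%, and the repeat CACACACA in 0.617%, 4.19% and 2.65%. The Zelda element CAGGTA stood in 0.970% of summits (Wilson 0.542 to 1.73), 1.72% of flanks and 1.82% of tiles, so the flank share lay just inside the interval of the summits. At all other IDR peaks the shares were 30.8% for the E-box, 7.12% for GAGAG and 0.510% for CACACACA, close to the present set. The Zelda element stood in 1.90% of them, above the interval of the present set. The promoter element DRE (TATCGATA) was found at 1 summit of the 1134, or 0.0882% (Wilson 0.0156 to 0.498), against 1.63% of peaks within 500 bp of a TSS. The core promoter element GGTCACAC of M1BP also stood at 1 summit, against 0.723% of peaks near TSSs. BEAF elements (CGATA, which the DRE contains) stood in 9.35% of summits, against 14.7% of peaks near TSSs and 11.0% of tiles. The caudal, nuclear receptor, forkhead and Pho elements stood in 1.68 to 2.91% of summits, and each flank share fell inside the Wilson interval of the summits. So did that of the ETS element, 0.617%, against 0.176% of summits (Wilson 0.0484 to 0.641). The Su(H) and GA-repeat elements stood in 0.794% and 0.353% of summits, with flank shares of 1.76% and 1.68%. Elements at 1 to 4 summits varied between replicate lists, at 0.639% and 0.178% for the GA repeat, 0 and 0.0891% for the DRE and 0.0913% and 0.178% for M1BP, in replicates 1 and 2.

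**Figure D5:**
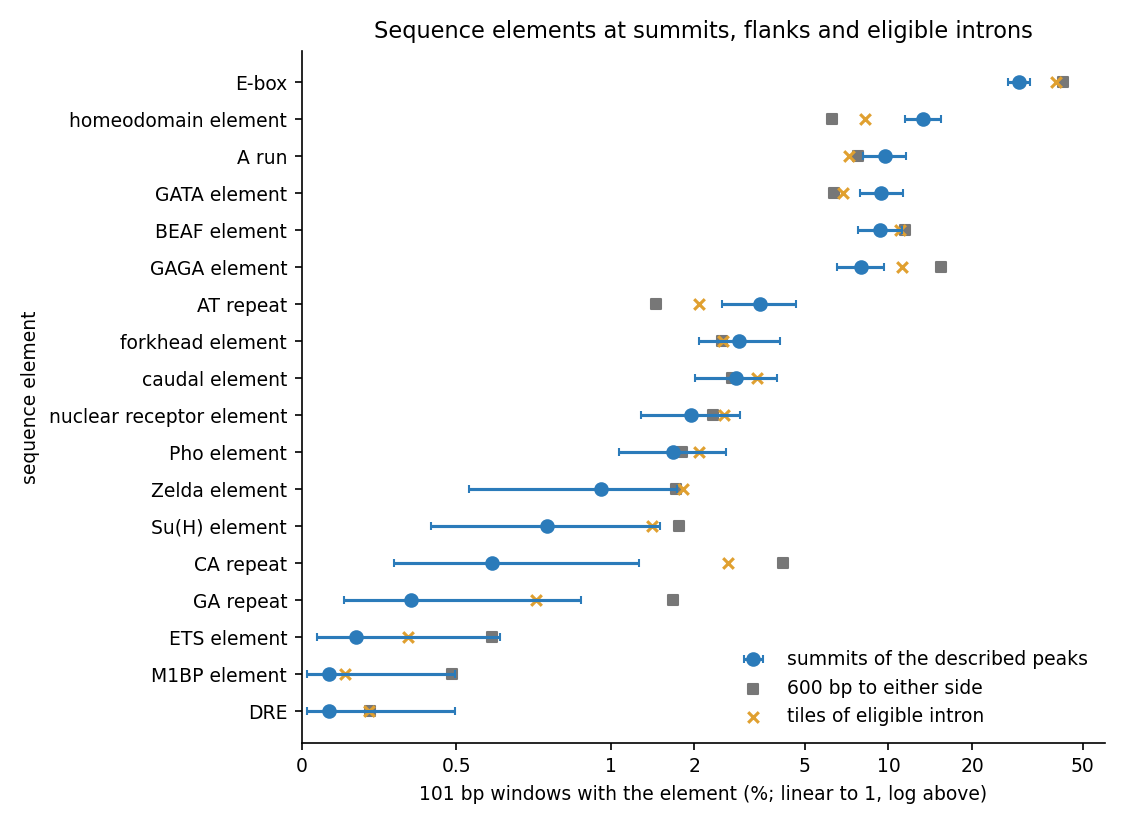
Share of windows, in percent (linear to 1, log above), that held each of 18 sequence elements at the summits of the 1134 peaks (blue, with 95% Wilson intervals of counting error), 600 bp to either side (grey squares) and in tiles of eligible intron (orange crosses). The homeodomain element lies to the right at the summits, at 13.3%, and the E-box to the left, at 29.5%.

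Words of 7 letters were counted without a list of factors. TTAAAAA or its reverse complement was the commonest, in 19.0% of summits, 7.01% of flanks and 8.31% of tiles. AAAATAT stood in 18.6% of summits and 9.17% of tiles. Among words in at least 5% of summits the highest ratio to tiles was that of ATATTAC, 5.64% against 1.72%, and AATATTA stood in 12.9% against 4.25%. The longest unbroken A/T run in a summit window had a median of 11 bases, against 8 in flanks and in tiles. All other IDR peaks also had a median of 11 at the summit. The length of this run had a Spearman's rho of 0.08 with signal over the set.

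The members at the limits of the rule had ordinary signals. Just beyond 500 bp lay peaks in CG17124 (502 bp, 279), stv (502 bp, 195) and Dys (503 bp, 202), and just short of it peaks in CG32196 (498 bp, 176), lncRNA:CR42736 (499 bp, 367) and sut1 (499 bp, 192). Just inside 3000 bp lay peaks in Prp16 (2966 bp, 326), EDTP (2976 bp, 320) and Dhit (2978 bp, 231), and just outside it peaks in siz (3005 bp, 556), l(1)G0289 (3011 bp, 166) and CG32354 (3022 bp, 216).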

How the data were processed

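The authors deposited narrowPeak lists on dm6: 1 per replicate, 1 pooled and 1 that passed IDR. The deposited signal of a peak, the deposited −log10 of its q-value (capped at 3.85, which 733 of the peaks described here shared) and the deposited summit offset were read as given. The aligner, peak caller and control were not given in the sources used here. No read counts are given, so depth is unknown, and Wilson intervals cover counting error of peaks only. Summits were placed with the Ensembl 115 annotation, without transposable elements. Summits of 4 IDR peaks, 2 of them described here, lay outside their own peak and were kept as given. Density is peaks per Mb of eligible sequence. For replicate signals the overlapping peak with the nearest summit was taken. The code recovered all known answers of a toy chromosome. Named genes were hosts of the 20 strongest members, hosts of 4 or more, up to 3 hosts of each of 22 gene lists by signal, and the members at the limits. Further hosts that fill out a list's count, genes beside a peak and the GC extremes were chosen after their values were seen; 9 listed symbols had no match. Members, lists and the 18 elements were chosen with earlier results of these data known. Python 3.11.15, numpy 2.4.6, pandas 2.3.3 and scipy 1.17.1 were used. Alternatives covered summit placement, annotation, distance limits, peak number, overlap, window and each replicate alone.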

Additional observations from a re-analysis of the deposited data

How the results depend on the processing

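Taking each replicate list alone moved the member share over 20.1 to 20.6%, the nearest-to-farthest density ratio over 1.85 to 1.87, the signal ratio to other peaks over 0.979 to 1.03, the downstream share over 64.0 to 64.9%, the first-intron share over 79.1 to 79.9% and summit GC content over 29.7 to 31.1%. Summit-to-flank ratios ran over 2.00 to 2.28 for the homeodomain element, 0.752 to 0.807 for the E-box, 1.24 to 1.36 for the A run and 0.103 to 0.267 for the CA repeat, and host genes over 795 to 815.

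With transposable elements counted as transcripts the member share was 21.6%, the density ratio 1.75, the downstream share 62.0% and the first-intron share 78.0%. With TSSs of protein-coding genes alone these were 19.7%, 1.77, 65.0% and 80.1%. Limits of 1000 to 3000 bp gave a member share of 13.6%, a downstream share of 67.3%, a first-intron share of 77.8% and an E-box ratio of 0.634. Limits of 500 to 2000 bp gave a member share of 16.2% and a first-intron share of 81.0%. Peak centres gave a density ratio of 1.94 and an E-box ratio of 0.738.

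The 2722 strongest peaks of the IDR list gave a member share of 20.5%, a density ratio of 2.07, support in both replicates of 69.5%, a first-intron share of 81.1%, GC content of 28.9%, a homeodomain ratio of 3.07 and 476 hosts. The 10890 strongest pooled peaks gave a density ratio of 1.61, a signal ratio of 1.01, a downstream share of 65.4%, a first-intron share of 77.2%, GC content of 32.9%, ratios of 1.59 (homeodomain), 0.803 (E-box) and 0.310 (CA repeat), and 1294 hosts. Fewer or more peaks enter those 2 settings, which by construction moves the number of hosts. For the other changes the cause was not tested.

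Support in both replicates was 80.5% with any overlap, 76.9% with summits within 100 bp and 77.9% with all replicate peaks. A window of 51 bp gave ratios of 2.52 (homeodomain) and 0.777 (E-box). A window of 100 bp to either side of the summit gave GC content of 32.7% and ratios of 1.82 (homeodomain), 0.886 (E-box) and 0.298 (CA repeat). The density ratio stayed above 1 in all settings that gave it, while the signal ratio lay on both sides of 1. Depth is unknown, no control was used, and whole embryos mix tissues and ages, so peaks of different cells cannot be told apart.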
